A study of Mus musculus with 3 samples.

Results

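The genes described here belong to the solute carrier families SLC1, SLC3, SLC6, SLC7, SLC36, SLC38 and SLC43, which hold amino acid transporters. Not all members carry amino acids: Slc6a2, Slc6a3 and Slc6a4 carry monoamines, Slc6a8 creatine and Slc43a3 purine nucleobases. Members were taken by name: every gene whose symbol carries the family prefix, a number and nothing after it, and which at least 1 probe set of the array names alone. This gave 58 genes with 118 probe sets, of 18193 named genes in all. Slc38a8 and Slc38a11 match the name but had no such probe set and were not analysed here.

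RNA came from sorted cap mesenchyme, the progenitors of the nephron, in E15.5 kidneys of CD-1 mouse embryos (Theiler stage 23). The embryos carried the transgene Tg(Six2-EGFP/cre)1Amc, which marks the cells by EGFP and also encodes cre. The 3 arrays form 1 group, each made from some 5 to 10 pooled kidneys, with the sex of the embryos unknown, and they are called pools 1, 2 and 3. The series compares no second cell type, genotype or stage, and nothing in the labels says whether the pools came from separate litters, so p-values measure only the spread between these pools.

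Amino acid transporters carry the building blocks of protein, and precursors of nucleotides, glutathione and polyamines, across the plasma membrane and the lysosomal membrane. Some work alone, while the SLC7 light chains need an SLC3 heavy chain to reach the cell surface. In the mature kidney, cells of the proximal tubule recover filtered amino acids through apical carriers such as Slc6a19 and the dimer of Slc3a1 and Slc7a9. Growing cells depend more on carriers of glutamine, leucine, arginine and cystine, which include Slc1a5, Slc7a5, Slc7a1 and Slc7a11.

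Values are linear array intensity signals. Each was set against the background level of its array, the 95th percentile of 150 probe sets for olfactory, vomeronasal and taste receptors, keratin-associated proteins and defensins. The signals at this level were 197, 186 and 201 on the arrays of pools 1, 2 and 3. A gene was called above background when any of its probe sets had an adjusted p under 0.05 in limma's one-sided test. The difference from background is given on the log2 scale after a pseudocount of 16, which understates it for weak signals. Signals of different genes cannot be ranked against each other, because probe sets differ in affinity, and a gene not above background may still be transcribed. In RNA from sorted pools, fewer expressing cells and less RNA per cell cannot be told apart.

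Markers of the labelled cell type were present. All 10 cap mesenchyme markers were above background, among them Eya1 (33774 ± 4443, SD, n = 3) and Cited1 (878 ± 121). Of other lineages, 1 of 12 proximal tubule, 1 of 9 ureteric, 5 of 7 stromal and 3 of 6 neural markers passed. Of all named genes, 54.4% passed. The stromal markers Foxd1 (7565 ± 322) and Aldh1a2 (11845 ± 3526) had the largest statistics of their list, and Ntn1 and Tbx18 did not pass. What stromal cells add to the transporter signals was not tested. No endothelial (of 7), macrophage (of 8) or erythroid (of 7) marker passed in limma, and none of these 3 lists had a member with an unadjusted p under 0.05. No marker was listed at 0 in any pool. Dissociation stress genes passed in 8 of 10 cases, with Fos at 35389 ± 6623. The log2 ratio of 3′ to 5′ control signal ranged from 4.08 to 5.05 for Gapdh and from 1.82 to 3.28 for beta-actin.

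Of the 58 transporter genes, 27 (46.6%) were above background, against 54.4% of all named genes. The median difference from background was 0.12 on the log2 scale for the 58 genes and 1.21 for all named genes. Genes with several probe sets have more chances to pass. Among those with 1 probe set, 8 of 28 transporters (28.6%) and 37.1% of named genes passed. Among those with several, 19 of 30 transporters (63.3%) and 72% of named genes passed. The transporter share thus lay under that of all genes in either class, with no test of the difference. Counts by family and role in what follows are to be read against these shares and were not tested.

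All 27 genes above background exceeded the background level in each of the 3 pools, and 26 of the 31 others lay under it in each pool. The exceptions were Slc7a7 and Slc36a3, over the level in every pool without passing the test, and Slc7a9, Slc6a13 and Slc6a15, over it in some pools. The spread of the values over the families is shown in the plot of signals by pool.

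**Figure D1:**
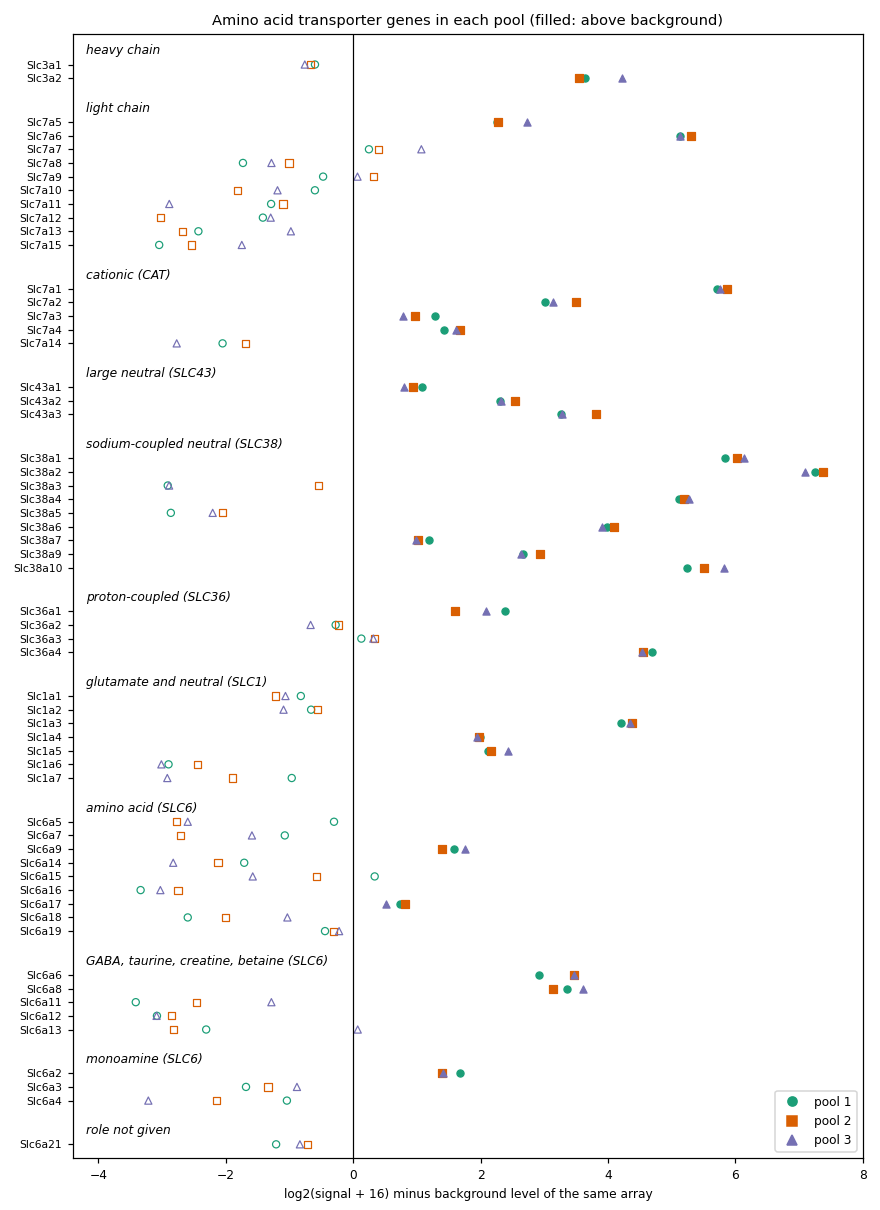
Each row is 1 of the 58 genes, grouped by role, and each symbol is 1 pool, placed by log2(signal + 16) of the gene's brightest probe set minus the background level of the same array (vertical line at 0). Filled symbols mark the 27 genes above background, which lie right of the line in all pools; distances from the line do not rank genes.

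Of the heavy chains, Slc3a2 was above background and Slc3a1 was not. Slc3a2, also known as CD98 heavy chain or 4F2hc, carries several SLC7 light chains to the plasma membrane. It had signals of 2618, 2324 and 4038 in pools 1, 2 and 3, with pool 3 the highest. Its difference from background was 3.797 ± 0.215 (log2, SE, n = 3; adjusted p = 2.5e-07, limma). Slc3a1, the rBAT subunit that is mutated in cystinuria, had signals of 124, 111 and 112, all under the background level (-0.68 ± 0.05). Each gene has 1 probe set, so no second reading is at hand.

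The promoter windows of the heavy chains are shown because the genes are the common subunits of the dimeric transporters and were called differently. Each runs from 250 bases before to 50 bases after the start of the gene in RefSeq (build GRCm38.p6), 5′ to 3′ on the gene's strand, with CpG dinucleotides in capitals. The window of Slc3a2 lies at chr19:8713848-8714147 on the minus strand and holds 15 CpGs, and that of Slc3a1 at chr17:85028097-85028396 on the plus strand and holds 7.
Slc3a2: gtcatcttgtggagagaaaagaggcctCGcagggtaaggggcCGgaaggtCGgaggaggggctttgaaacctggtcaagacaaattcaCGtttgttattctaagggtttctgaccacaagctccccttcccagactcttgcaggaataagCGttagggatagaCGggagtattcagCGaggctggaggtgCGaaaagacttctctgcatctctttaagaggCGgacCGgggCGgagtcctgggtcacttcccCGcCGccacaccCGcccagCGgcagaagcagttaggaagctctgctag
Slc3a1: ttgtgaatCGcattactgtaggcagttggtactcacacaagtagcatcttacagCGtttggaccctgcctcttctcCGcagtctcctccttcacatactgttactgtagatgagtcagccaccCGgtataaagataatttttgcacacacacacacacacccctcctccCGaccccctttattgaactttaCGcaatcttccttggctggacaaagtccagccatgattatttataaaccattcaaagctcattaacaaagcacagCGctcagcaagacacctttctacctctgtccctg

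A promoter window was found for 41 of the 58 genes by gene identifier. The median window held 17 CpGs in the 17 transporters above background and 9.5 in the 24 not above it. Over all named genes the medians were 22 above background and 7 not above it, so the direction was that of genes in general. Transporters departed from it singly: Slc1a3 and Slc6a17 passed with 3 CpGs each, and Slc1a1, Slc1a6 and Slc6a11 did not pass with 32 each.

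**Figure D2:**
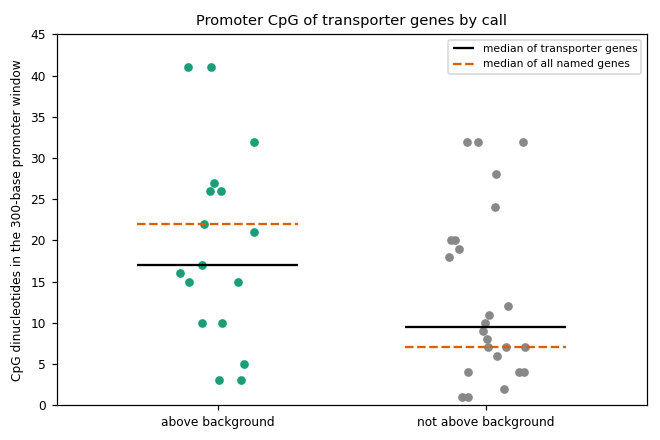
Points are the CpG counts of the 300-base promoter windows of 41 transporter genes, split by call and spread sideways for legibility; solid lines are their medians (17 and 9.5) and dashed lines the medians of all named genes (22 and 7). The groups overlap widely.

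Of the 10 light chains, 2 were above background. Slc7a5 (LAT1) exchanges leucine and other large neutral amino acids for glutamine. Its signals were 999.7 in pool 1, 956 in pool 2 and 1418 in pool 3 (2.42 ± 0.15 over background, log2, SE, n = 3; adjusted p = 3.4e-06, limma). As with its heavy chain Slc3a2, pool 3 was the highest and pool 2 the lowest. The same held for Slc1a5, Slc6a8, Slc6a9 and Slc38a4, and 43% of all genes above background were highest in pool 3. Slc7a6 (y+LAT2), which exchanges arginine for neutral amino acids, had signals of 7440.05, 7982 and 7604 (5.19 ± 0.06; adjusted p = 1.6e-08). The pools differed little, and a second probe set of Slc7a6 was also above background.

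Slc7a7 (y+LAT1), which serves the basolateral exit of arginine and lysine in epithelia, read 236, 250.3 and 439, over the background level in each pool. It missed the threshold (adjusted p = 0.0876, limma) and was the single gene among the 31 with an unadjusted p under 0.05. It passed with background taken from receptor probe sets alone (adjusted p = 0.0470) and when the dimmest 25% of probe sets were left out (adjusted p = 0.0488). Slc7a8 (LAT2), a relative of Slc7a5, had 48.0, 84.3 and 73.1, under background in all pools. Slc7a9, the light chain of Slc3a1, had 137, 235 and 211, on either side of the level. Slc7a10, Slc7a12, Slc7a13 and Slc7a15 had mean signals between 25.6 and 81.5 and did not pass.

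Slc7a11 (xCT), the light chain that exchanges glutamate for cystine, was not above background. Its brighter probe set read 71.0, 77.9 and 13.3, and its other probe set 7.08, 2.88 and 3.66. In a list of glutathione and related redox genes, 10 of 11 passed. Among them were Gpx1 (7219 ± 993), Gpx4 (8860.0 ± 1599) and Gclm (389 ± 13.9). The list also holds genes outside glutathione synthesis and use, such as Txnrd1. Of its 11 genes, 9 have several probe sets, a class in which 72% of named genes passed. Chac2, which breaks down glutathione, did not pass (204 ± 45.6).

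Slc7a11 and Slc1a4 are known targets of Atf4, the transcription factor of the amino acid response, and are shown because both windows hold its motif while the calls differed. The letters TGATGNAA were searched on both strands, with no other motif sought that could overlap them. They occurred in the windows of 4 of 41 transporters (9.76%), namely Slc1a4, Slc6a21, Slc7a7 and Slc7a11, of which Slc1a4 was above background. Of 14368 named genes with a window, 465 (3.24%) hold them, 2.43% of those above background and 4.28% of those not above it. Over all 32851 windows in the RefSeq table the share is 3.97%. A match describes the letters and is not evidence of binding. Capitals mark the matches, 1 in Slc1a4 (chr11:20332664-20332963, minus strand) and 2 in Slc7a11 (chr3:50443564-50443863, minus strand), both GRCm38.p6 and written 5′ to 3′.
Slc1a4: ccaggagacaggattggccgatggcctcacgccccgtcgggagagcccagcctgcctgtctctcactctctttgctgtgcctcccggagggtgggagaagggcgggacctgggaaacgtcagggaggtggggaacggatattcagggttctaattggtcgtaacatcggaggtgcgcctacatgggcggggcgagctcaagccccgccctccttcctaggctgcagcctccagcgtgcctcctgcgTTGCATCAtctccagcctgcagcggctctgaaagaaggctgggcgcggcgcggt
Slc7a11: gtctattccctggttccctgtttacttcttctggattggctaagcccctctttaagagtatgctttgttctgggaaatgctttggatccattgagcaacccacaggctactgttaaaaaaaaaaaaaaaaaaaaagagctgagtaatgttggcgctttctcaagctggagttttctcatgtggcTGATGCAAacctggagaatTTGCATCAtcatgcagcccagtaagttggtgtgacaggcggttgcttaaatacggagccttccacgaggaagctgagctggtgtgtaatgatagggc

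Cationic amino acid transporters, the SLC7 members that work without a heavy chain, were above background in 4 of 5 cases. Slc7a1 (CAT1), the widely used carrier of arginine and lysine, had signals of 11075, 11767 and 11660 in pools 1, 2 and 3 (5.77 ± 0.05 over background, log2, SE, n = 3; adjusted p = 1.6e-08, limma). These values lay within a 1.06-fold range, while its other probe set above background read 2729, 1873 and 1670.2, with pool 1 the highest. Slc7a2 (CAT2) had 1692, 2271 and 1896 (3.22 ± 0.15; adjusted p = 3.4e-07) on the brighter of its 2 probe sets above background, with pool 2 the highest. The other read 924, 396 and 219, with pool 1 the highest, so no pool order holds for Slc7a2.

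Slc7a3 (CAT3) was at 499.95, 378 and 358 (adjusted p = 0.00336, limma) and Slc7a4 at 557, 629.8 and 651 (adjusted p = 7.6e-05). These values were nearer to background, and neither gene passed when the 99th percentile of background set the level. Slc7a14 had a mean signal of 32.5 ± 15.54 and did not pass. Probe sets of Slc7a1, Slc7a2 and Slc7a4 disagreed: 2 of 3, 2 of 4 and 1 of 3 were above background.

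All 3 SLC43 genes were above background. Slc43a2 (LAT4), which carries leucine and other large neutral amino acids without sodium, had signals of 1039.6, 1154 and 1069 (2.39 ± 0.07 over background, log2, SE, n = 3; adjusted p = 1.9e-06, limma), on 1 of 3 probe sets. Slc43a1 (LAT3), a carrier of the same substrates, was closer to the level at 433, 368 and 360.0 (adjusted p = 0.00453) and did not pass at the 99th percentile of background. Slc43a3, a transporter of purine nucleobases despite its family, had 2025, 2814 and 2092, with pool 2 the highest (adjusted p = 3.0e-07).

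The SLC38 family of sodium-coupled neutral carriers had 7 of 9 measured genes above background. All 3 system A carriers, which take up glutamine, alanine and other neutral amino acids with sodium, passed. Slc38a2 (SNAT2) had signals of 32427, 33317 and 29459 in pools 1, 2 and 3 (7.24 ± 0.08 over background, log2, SE, n = 3). Slc38a1 (SNAT1) had 12067, 13098 and 15296 (5.997 ± 0.091), and Slc38a4 (SNAT4), an imprinted gene, had 7332, 7323.5 and 8319 (5.19 ± 0.04). Each of these had an adjusted p of 1.6e-08 in limma, and every probe set of the 3 genes passed. The dimmer probe sets of Slc38a2 read 3379, 2307 and 1617 and 403, 512 and 698, in opposite order over the pools.

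The system N carriers, which can also release glutamine, did not pass. Slc38a3 (SNAT3) had signals of 12.3, 122 and 13.2 and Slc38a5 (SNAT5) of 13.2, 32.4 and 31.0, all under background. A second probe set of Slc38a3 read 98.6 in pool 2 against 4.74 in pool 1 and 15.3 in pool 3. These readings too lay under the background level, so no pool difference is drawn from either probe set.

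Among the lysosomal members, Slc38a9, an arginine sensor that signals to mTORC1, had 1326, 1514 and 1328 (adjusted p = 6.9e-07, limma). Slc38a7, which exports glutamine from lysosomes, had 468, 392 and 412 (adjusted p = 0.00178) and did not pass at the 99th percentile of background. Slc38a6 was at 3360.0, 3423 and 3234 and Slc38a10 at 8008, 9171 and 12252, so Slc38a10 was highest in pool 3 (adjusted p = 3.4e-08 and 2.2e-08).

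Slc38a1, Slc38a2 and Slc38a4 follow each other on the chromosome with no coding gene between. Members of the set next to each other, or with at most 1 coding gene between, formed 8 pairs in RefSeq. In 7 of them the calls were the same, with both genes above background in 3 pairs and neither in 4. Slc36a2 and Slc36a1 were the pair that differed. Pairs that share a gene are not independent. The same count was not made for neighbouring genes in general, so no conclusion is drawn from these 8 pairs.

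The SLC36 proton-coupled carriers divided evenly, with 2 of 4 above background. Slc36a1 (PAT1), a lysosomal and plasma membrane carrier of glycine, alanine and proline, had signals of 1088, 592 and 904 (2.02 ± 0.23 over background, log2, SE, n = 3; adjusted p = 3.3e-05, limma). Pool 1 was the highest, with a 1.82-fold range over the pools. Slc36a4 (PAT4), which binds proline and tryptophan with high affinity, had 5492, 4700.4 and 4986 (adjusted p = 1.8e-08). Slc36a2 was at 160, 156 and 120.4, under the level, and Slc36a3 at 216, 238 and 254, just over it (adjusted p = 0.391).

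In the SLC1 family the neutral amino acid exchangers and 1 of 5 glutamate carriers were above background. Slc1a5 (ASCT2), which brings glutamine into growing cells, had signals of 902, 891 and 1151 (2.23 ± 0.10 over background, log2, SE, n = 3; adjusted p = 4.0e-06, limma). Slc1a4 (ASCT1), an exchanger of alanine, serine and cysteine, had 825, 779 and 815 (adjusted p = 8.8e-06). Pool 3 was the highest for Slc1a5, while the pools of Slc1a4 lay within a 1.06-fold range. Of the probe sets, 1 of 2 passed for Slc1a5 and 1 of 3 for Slc1a4.

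Slc1a3 (GLAST), a glutamate carrier best known from astrocytes, had 3882, 4183 and 4377 (4.31 ± 0.06; adjusted p = 2.3e-08, limma). It has 6 probe sets, of which 3 passed. A probe set for Slc1a3 that can match several transcripts read 309, 1058 and 1734, and another that did not pass read 555, 87.6 and 19.6, in opposite order over the pools. Slc1a1 (EAAC1), the glutamate carrier of tubule and neurons, had 104, 70.4 and 87.7. Slc1a2, the main astrocyte carrier, had 118, 121 and 85.6, with none of 5 probe sets above background. Slc1a6 and Slc1a7, carriers of Purkinje cells and retina, had mean signals of 14.8 ± 5.495 and 47.9 ± 41.0.

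SLC6 was the largest family, with 5 of 18 genes above background. Carriers of osmolytes and energy substrates were among them. Slc6a6, the taurine transporter, had signals of 1583, 2222 and 2374 in pools 1, 2 and 3 (3.28 ± 0.19 over background, log2, SE, n = 3; adjusted p = 4.7e-07, limma). Slc6a8, the creatine transporter, had 2164, 1759 and 2624 (3.37 ± 0.13; adjusted p = 2.1e-07). Both probe sets of Slc6a8 passed, and pool 3 was the highest on each. Of the 4 probe sets of Slc6a6, 2 passed, and they differed in order: the second read 608, 272 and 309, with pool 1 the highest.

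Slc6a9 (GlyT1), the glycine transporter found outside glycinergic neurons, had 621, 516 and 719 (adjusted p = 8.6e-05, limma). Its 2 probe sets both passed, but not at the 99th percentile of background. The neuronal glycine carrier Slc6a5 (GlyT2) did not pass, at 156, 13.5 and 19.8. Slc6a17, a vesicular carrier of neutral amino acids in neurons, was near the level at 338, 339 and 294 (adjusted p = 0.0264) on 1 of 3 probe sets. Slc6a17 lost its call without pool 1 (adjusted p = 0.0751) and without pool 2 (adjusted p = 0.143), and lay under the 99th percentile of background.

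Slc6a2, the noradrenaline transporter, was above background on 1 of 4 probe sets, at 663, 512 and 559 (1.49 ± 0.09; adjusted p = 0.000133, limma). The probe set of Slc6a2 that the annotation ties to a RefSeq transcript read 135, 122 and 94.2 and did not pass. Over the 58 genes, 7 of the 23 probe sets so tied passed, against 39 of the 95 others. The call of Slc6a2 did not hold at the 99th percentile of background. Of the 6 neural markers measured, 3 passed. Elavl4 (3581 ± 221) passed on 3 of 3 probe sets and Nefl (952 ± 355) on 2 of 2. Dbh, the enzyme of noradrenaline synthesis (427 ± 94.4), passed on 1 of 3. Tubb3 (26.5 ± 27.5) and Stmn2 (33.3 ± 16.2) were among those that did not pass. The summed signal of the neural markers was 5373, 4576 and 5703 in pools 1, 2 and 3, of which Elavl4 gave 3705, 3326 and 3711. None of the neural markers was at 0, and their part in the Slc6a2 signal was not tested. The dopamine and serotonin transporters Slc6a3 and Slc6a4 had mean signals of 71.8 ± 26.6 and 41.4 ± 41.3 and did not pass.

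The other SLC6 genes did not pass. They included Slc6a19 (B0AT1), the apical neutral amino acid carrier of proximal tubule, at 140.4, 147 and 170.0, and its neighbour Slc6a18 at 19.1, 34.3 and 89.9. GABA and betaine carriers Slc6a11, Slc6a12 and Slc6a13 had mean signals of 32.5, 10.2 and 83.7, and Slc6a13 read 212 in pool 3 against 26.9 in pool 1 and 12.48 in pool 2. Mean signals of Slc6a7, Slc6a14, Slc6a15, Slc6a16 and Slc6a21 ran from 9.86 to 143. Cltrn, the protein that Slc6a19 needs at the apical membrane in kidney, was also not above background (22.5 ± 8.73). Of 12 other proximal tubule markers, 1 passed, Slc4a4 (523 ± 178), and their summed signal was 1805, 1536 and 1731 in pools 1, 2 and 3.

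**Figure D3:**
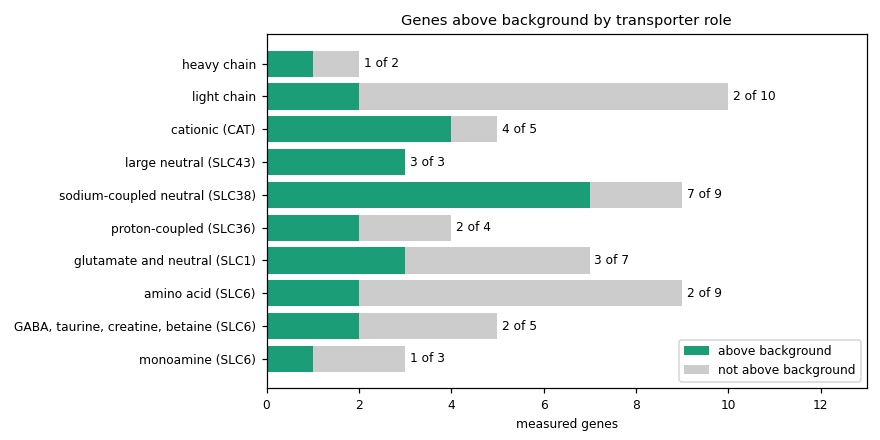
Bars give the number of measured genes in each transporter role, with genes above background in green and the rest in grey. System A and other SLC38 carriers (7 of 9), cationic carriers (4 of 5) and SLC43 (3 of 3) had most of their genes above background, and light chains (2 of 10) and SLC6 amino acid carriers (2 of 9) few. Of all named genes, 54.4% passed, 37.1% with 1 probe set and 72% with several. Roles differ in probe sets per gene, and their counts were not tested. At the 99th percentile of background, 2 cationic and 2 SLC43 genes passed.

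Probe sets of the same gene often disagreed. Of 118 probe sets, 46 (39.0%) were above background, against 41.5% of all probe sets. Split calls, with some probe sets of a gene above background and others not, were found in 13 of the 19 called transporters that have several (68.4%), against 64.4% of all such genes. The 6 genes on which all probe sets passed were Slc38a1, Slc38a2, Slc38a4, Slc6a8, Slc6a9 and Slc7a6. The widest set, the 7 probe sets of Slc38a10, ran from 5.52 over background to 1.45 under it on the log2 scale (the lowest at -1.45). Slc38a6 had 1 probe set at 3339 ± 96.4 and the other between 7.39 and 25.2 in the 3 pools.

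**Figure D4:**
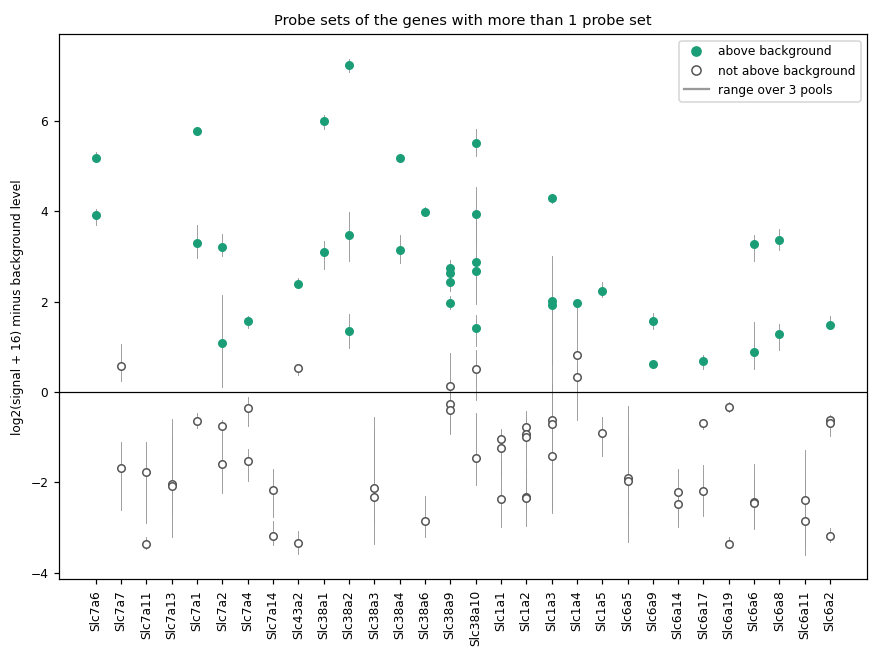
Each point is 1 probe set of the 30 transporter genes with several, placed by its mean log2(signal + 16) over the background level, and grey lines span the 3 pools. In 13 of the 19 genes with a green point, green and open points occur together.

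On the brightest probe set of each gene, none of the 27 genes above background differed by 2-fold or more between pools, against 6.87% of all genes above background. Counting every probe set that passed, 5 of the 27 (18.5%) had 1 with at least a 2-fold range, against 16.8% of all genes above background, a share close to theirs. These were probe sets of Slc1a3, Slc7a2, Slc6a6, Slc38a2 and Slc38a10, with ranges from 2.08-fold to 5.39-fold. On the brightest probe sets the median coefficient of variation was 10.3%, against 16.2% for all genes above background, and the median ratio of highest to lowest pool was 1.19, against 1.36. The widest ratios on these probe sets were those of Slc36a1 (1.82), Slc3a2 (1.73), Slc38a10 (1.53), Slc6a6 (1.49), Slc6a8 (1.49) and Slc7a5 (1.47). The narrowest were those of Slc1a4 (1.06), Slc38a6 (1.06), Slc7a1 (1.06) and Slc7a6 (1.07).

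On the brightest probe set, pool 3 was the highest for 11 of the 27 genes (40.7%), against 43% of all genes above background, pool 2 for 9 (33.3%, against 27.5%) and pool 1 for 7 (25.9%, against 29.5%). The shares were close to those of genes in general. The 11 genes were Slc3a2, Slc7a4, Slc7a5, Slc1a3, Slc1a5, Slc6a6, Slc6a8, Slc6a9, Slc38a1, Slc38a4 and Slc38a10. The median deviation from the 3-pool mean was -0.05 in pool 1, -0.05 in pool 2 and 0.02 in pool 3 on the log2 scale, against -0.04, -0.02 and 0.06 for all genes above background.

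**Figure D5:**
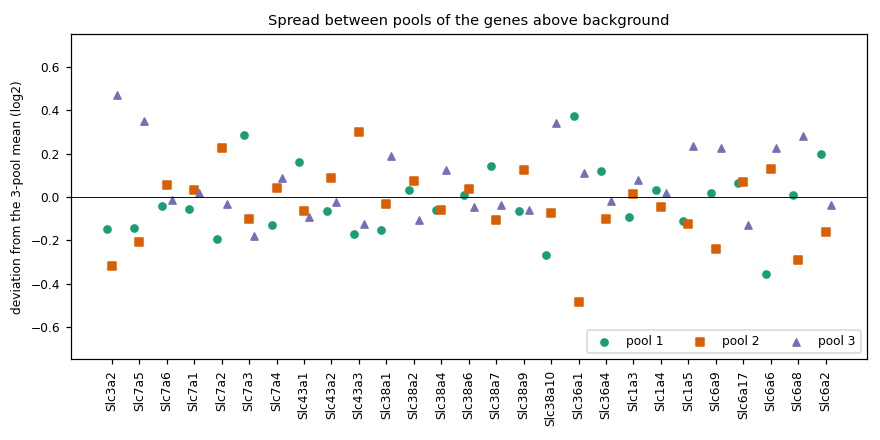
Points show, for each of the 27 genes above background, the deviation of log2(signal + 16) of its brightest probe set in each pool from the mean of the 3 pools. Slc3a2, Slc7a5 and Slc1a5 are highest in pool 3 and Slc36a1 in pool 1; no gene spans 2-fold on this probe set.

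Other genes that handle amino acids are to be read against the share of named genes above background, 54.4% in all, 37.1% with 1 probe set and 72% with several. All 19 measured cytosolic aminoacyl-tRNA synthetases, which load amino acids onto tRNA, passed, among them Farsb (23436 ± 660), Nars (15964 ± 1491) and Kars (20995 ± 2308). The weakest statistics of the list were those of Cars (883 ± 97.9) and Vars (1262 ± 430.3). Of the sensing machinery that links amino acids to mTORC1, 23 of 24 genes passed. Lamtor1 (15163 ± 678) and Lamtor3 (13850 ± 429), parts of the lysosomal Ragulator, and Seh1l (17305 ± 1862), a nuclear pore protein that is also part of GATOR2, had the largest statistics. The arginine sensor Castor1 was at 428 ± 117, and Lamtor4 did not pass (271 ± 67.4). The median differences from background were 5.63 and 4.22 (log2) for these lists, against 1.21 for all named genes.

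Genes of the amino acid response passed in 20 of 26 cases (76.9%), and 20 of the 26 have several probe sets. The share lay over the 37.1% of named genes with 1 probe set and the 72% with several, and was not tested. The serine synthesis enzymes Phgdh (16293 ± 1379) and Psat1 (22735 ± 2780.1) and the factor Cebpg (9487 ± 990.2) had the largest statistics, while Fgf21 (31.5 ± 10.4) and Nupr1 (15.6 ± 10.8) did not pass. Pool 3 was the highest for 12 of the 20, against 43% of all genes above background, with no test of the difference. Enzymes of amino acid metabolism passed in 12 of 18 cases (66.7%), with Odc1, the first enzyme of polyamine synthesis, at 40091 ± 7390 and the transaminase Got2 at 24275 ± 1440. The branched-chain transaminase Bcat2 (26.9 ± 10.5) and the urea cycle enzyme Arg1 (56.6 ± 42.6) did not pass.

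Of the partners and regulators of the transporters, 6 of 7 passed, with Bsg, a chaperone of monocarboxylate carriers, at 528 ± 33.0 and Itgb1, an integrin that binds the Slc3a2 protein, at 3508 ± 459. Nedd4, a ubiquitin ligase, read 63311, 111493 and 56249 in pools 1, 2 and 3, and Sgk1, a kinase that regulates carriers, was at 2127 ± 580. Amino acid and related carriers of other families passed in 10 of 21 cases (47.6%), against 54.4% of all named genes. Of the 21, 9 have several probe sets. The share lay between the 37.1% of named genes with 1 probe set and the 72% with several, and was not tested. The mitochondrial aspartate-glutamate carrier Slc25a12 (4739 ± 496), the ornithine carrier Slc25a15 (4377 ± 988) and Slc25a39, a mitochondrial glutathione importer (15840 ± 2472), passed. The synaptic vesicle carrier Slc17a6 (14.9 ± 16.4) and Slc6a20a (4.28 ± 2.58), which its suffix keeps out of the 58, did not.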

How the data were processed

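Expression was measured on 1 mouse Affymetrix array for each of 3 pools of sorted cells. GCOS gave the deposited linear intensity values, per the submitters' processing notes; its version is not given in the sources used here. Per the labels' protocols, RNA was amplified in 2 rounds, which favours the 3′ ends of transcripts. Leaving out the lowest and highest 2%, signals averaged 1500 on each array, so differences in total signal were removed before deposit. The depth of arrays is not counted, and their number limits the precision.

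Of 45101 probe sets, 64 controls were left out. Genes were named from the platform annotation: 34945 probe sets name 1 gene, 932 several and 9160 none. All 58 members matched RefSeq by Entrez identifier. The mean of log2(signal + 16) minus the array's background level was tested against 0 in limma 3.58.1 (R 4.3.3; intercept-only lmFit, eBayes with an intensity trend, one-sided), with Benjamini-Hochberg adjustment over 45037 probe sets. The probe set with the highest mean represents a gene. The script was tested on simulated data.

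The members and lists were chosen with earlier results of these data known. All 58 genes could be named, and of each list those with the 3 largest and 2 smallest moderated statistics. Genes that several lists hold count in each. Alternatives changed the background level and genes, the pseudocount, normalization, eBayes trend, filter on dim probe sets, probe set choice and pools. Promoter windows are from RefSeq, using the first entry of a gene for CpG counts and any entry for the motif. Python 3.11.15, pandas 2.3.3 and matplotlib 3.10.9 made tables and plots.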

Additional observations from a re-analysis of the deposited data

How the results depend on the processing

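The count of 27 genes above background lay between 20 and 28 over 12 alternatives, and 15 of the 27 genes kept their call in every alternative. At the 99th percentile of background, 20 genes passed, with 2 cationic carriers, 0 SLC6 amino acid carriers and 0 monoamine carriers; Slc38a7 (-0.069), Slc43a1 (-0.20), Slc6a17 (-0.44) and Slc7a3 (-0.12) then lay under the level on the log2 scale, and Slc6a2, Slc6a9 and Slc7a4 stayed over it without passing. With the first probe set of each gene by identifier, 21 genes passed, with 1 of the GABA, taurine, creatine and betaine carriers and 0 monoamine carriers. Slc38a6 (-2.86), Slc6a2 (-0.67), Slc6a6 (-2.46) and Slc7a1 (-0.64) then lay under background and Slc1a4 and Slc43a2 missed the threshold, because that probe set was not the brightest one. Leaving out 1 pool gave 26 to 27 genes and 1 to 2 SLC6 amino acid carriers, through Slc6a17. Slc7a7 passed under 2 alternatives, and the other 30 genes not above background passed under none. Pseudocounts, quantile normalization, the eBayes trend and leaving out _s_at and _x_at probe sets changed the call of none of the 58 genes. Counts for the pathway lists moved, such as the amino acid response from 20 to 19 with a pseudocount of 64 and the other carriers from 10 to 9 without the trend, but stayed within 1.5 times their value, and the count of genes with a 2-fold difference between pools was 0 wherever it was run. No paired analysis was possible because the samples form 1 group. Signal over background limits what can be called: genes near the level depend on where it is set.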

Other observations

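Probe sets near the transporter genes but outside their names gave further values. Slc7a6os, the gene annotated as the opposite strand of Slc7a6, was above background on both of its probe sets, at 1264 ± 107 and 2104 ± 803 (SD, n = 3; adjusted p = 7.7e-07 and 1.8e-06, limma). The second of these read 3017, 1508 and 1787 in pools 1, 2 and 3. Antisense partners Slc6a19os (78.1 ± 36.1) and Slc36a1os (94.2 ± 52.3) were not above background. A probe set shared by Slc1a2 and Gm13872 read 123, 17.4 and 18.8, and both probe sets of Slc6a20b were under the level (52.8 ± 38.3 and 47.6 ± 44.4). These genes were chosen after their values were seen.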
